A study of Arabidopsis thaliana with 12 samples.

Results

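Warmth and far-red light both make Arabidopsis seedlings elongate, and the 6 arrays described here show which transcripts tell the 2 signals apart. Of the series' 12 one-colour arrays, 3 came from plants kept warm in white light (WL 26) and 3 from plants given supplemental far-red light without warming (WFR 22). They were taken by their titles. The remaining 6 arrays, plain white light at 22 °C (WL 22) and far-red light with warmth (WFR 26), entered the estimate of the spread and are given for orientation.

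All groups were wild-type Arabidopsis thaliana of ecotype Columbia, and RNA came from the aerial parts. Every group was raised at 22 °C under unbroken white light for 9 days, given its own condition for the last 24 h, and harvested 10 days old. WL 26 plants had white light at 26 °C, and WFR 22 plants stayed at 22 °C with far-red added to the white light. The groups therefore differ in light quality and in temperature at once, and a difference between them does not by itself say which signal moved a gene. The labels call the 3 arrays of a condition biological replicates but do not say how many plants each holds.

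Plants read far-red light through phytochromes. A low ratio of red to far-red light turns phytochrome B to its inactive form, which releases PIF transcription factors and starts the shade avoidance response, with auxin synthesis and stem elongation. Warmth also shortens the life of active phytochrome B and acts through PIF4, and it induces chaperone genes besides.

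Values are log2 expression values per probe set, from 3.34 to 14.83 over the 12 arrays. A difference is WL 26 minus WFR 22 on that scale, so a positive one means higher in WL 26, and errors are limma's standard errors (SE). A probe set was called at a Benjamini-Hochberg adjusted p under 0.05. Arrays give no read depth, and 3 arrays per group limit the precision.

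In all, 917 of 22746 probe sets were called (4.03%), 377 of them higher in WL 26 (1.66%) and 540 lower (2.37%). The groups' arrays did not overlap for 375 of the 377 and for all 540, which the call on the same arrays largely fixes; over all probe sets tested, 24.1% did not overlap. Most called differences were small. Their median was 0.45 for the higher and -0.39 for the lower sets, and 28 higher and 11 lower sets passed a difference of 1. The plot of differences by level shows that they were spread over most of the range of expression.

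The split between higher and lower depends on array scaling. After subtracting each array's median it was 589 higher and 360 lower, after upper quartiles 523 and 395, after cyclic loess 509 and 428, and after quantile normalisation 472 and 467. Of the 917, none changed direction under these 4 scalings. The scalings moved the median difference by only 0.0079 to 0.0432, and the smallest called difference was 0.236 in size. A change of direction was therefore hardly possible. The number called was more than 1.5 times smaller without WL 26 replicate 1 (558), 2 (322) or 3 (455) and without WFR 22 replicate 1 (447) or 3 (557).

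**Figure D1:**
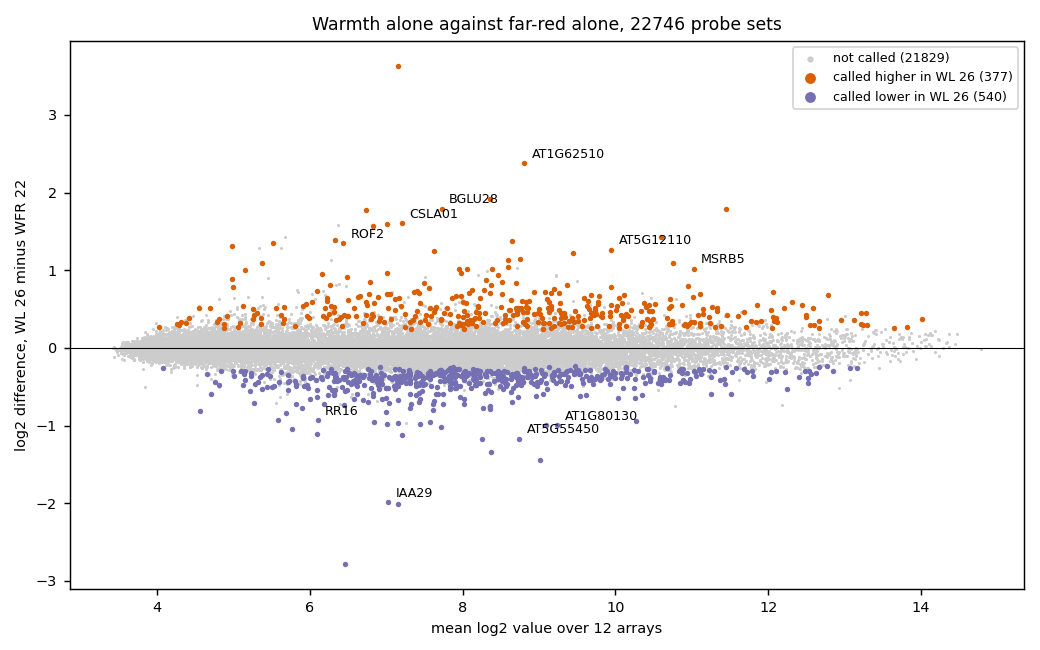
Log2 difference, WL 26 minus WFR 22, against the mean log2 value over 12 arrays, 1 point per probe set. The 377 sets called higher and 540 called lower lie on both sides of 0 along most of the x axis, with IAA29 the lowest of the labelled genes at -1.99 and AT1G62510 the highest at 2.37.

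A single gene could be named for 190 of the higher and 270 of the lower sets. A further 15 genes were to be given at any level, and 5 of them had a named probe set: IAA29, HAT2, YUC2, ROF2 and COR15A. The 10 others, among them the shade markers ATHB2, PIL1 and HFR1, the auxin gene YUC8 and PIF4 itself, are not analysed here.

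Auxin and shade genes come first, since the far-red response runs through them. IAA29, an auxin-inducible transcriptional repressor of the Aux/IAA family, gave the lowest difference of any named gene. Its values were 6.23, 6.18 and 5.75 in WL 26, against 8.08, 7.86 and 8.18 in WFR 22. The groups lay far apart, and IAA29 was 3.96-fold lower in WL 26 (difference -1.99 ± 0.16, adjusted p = 2.4e-05). WL 22 arrays, at 5.78, 5.80 and 6.08, were at the level of WL 26, and WFR 26 arrays, at 7.88, 7.98 and 8.51, at that of WFR 22.

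GH3.3, whose product couples free auxin to amino acids, was lower by a smaller amount. It measured 7.27, 7.05 and 7.09 in WL 26, against 7.43, 7.53 and 7.51 in WFR 22, without overlap (difference -0.35 ± 0.0731, adjusted p = 0.0183). HAT2 encodes a shade-induced transcription factor of the HD-Zip class. It had 8.53, 8.56 and 8.54 in WL 26, against 9.15, 8.92 and 8.75 in WFR 22. The HAT2 groups did not overlap either, but the difference of -0.40 ± 0.12 did not pass (adjusted p = 0.0824; 95% interval -0.66 to -0.14). HAT2 stayed uncalled in 20 of 22 alternatives (adjusted p of up to 0.264). It passed only with the dimmest 50% of probe sets left out (adjusted p = 0.0481) and with array weights (0.0295).

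Of 8 measured auxin response genes, 2 were lower (IAA29 and GH3.3) and 6 did not pass; 7 of the 8 had negative differences and the list's median was -0.13. All 3 measured shade markers, IAA29 and HAT2 among them, were negative and 1 was called (IAA29). IAA29 and HAT2 also belong to the auxin response list, so the lists are not separate results. Over all 13286 named genes, with 1 probe set each, 3.40% were called, 1.42% higher and 1.99% lower, and the median was -0.0121. Of these genes, 6064 had positive and 7215 negative differences. These figures are the base for the list counts below. YUC2, which makes auxin, had 6.25, 6.10 and 6.19 in WL 26, against 6.14, 6.16 and 6.17 in WFR 22. These arrays overlapped, with a difference of 0.02 (adjusted p = 0.912; 95% interval -0.14 to 0.19).

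Auxin-oxidising genes were looked at after their values were seen. DAO2 (AT1G14120), a dioxygenase of the family that inactivates auxin by oxidation, had 7.21, 7.46 and 8.15 in WL 26, against 6.46, 6.62 and 6.86 in WFR 22. It was higher by 0.96 (adjusted p = 0.0163), with no overlap, but was not called without WFR 22 replicate 1. Its relative DAO1 (AT1G14130) differed by 0.31 and did not pass (adjusted p = 0.0675).

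RR16, a cytokinin-inducible response regulator that dampens cytokinin signalling, was 1.91-fold lower in WL 26. It measured 5.52, 5.88 and 5.81 in WL 26, against 6.64, 6.73 and 6.64 in WFR 22 (difference -0.93 ± 0.127, adjusted p = 0.00169). RR16 was chosen from sets without overlap, so all 3 WL 26 arrays lay below all 3 WFR 22 arrays. ARR15, the other measured member of that list, differed by -0.28 and did not pass (adjusted p = 0.23).

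Warmth-side chaperones follow. Of 10 measured heat shock and co-chaperone genes, 3 were higher in WL 26, 0 were lower and 7 did not pass, with a list median of 0.18. Over all genes, 1.42% were higher and 1.99% lower. ROF2 (AT5G48570), a heat-inducible peptidyl-prolyl isomerase that binds HSP90, had 6.94, 7.29 and 7.29 in WL 26, against 5.88, 5.83 and 5.77 in WFR 22. It was 2.54-fold higher (difference 1.35 ± 0.159, adjusted p = 0.000788), and every WL 26 array lay more than 1 log2 unit above every WFR 22 array. WFR 26 arrays, at 7.12, 6.99 and 7.02, were close to WL 26, and WL 22 arrays, at 5.30, 5.66 and 6.15, to WFR 22.

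HSP23.5 (AT5G51440), a small heat shock protein of mitochondria, had 5.71, 5.98 and 6.43 in WL 26, against 4.97, 4.87 and 5.00 in WFR 22 (difference 1.09 ± 0.177, adjusted p = 0.00428). Hop3, a co-chaperone that links HSP70 to HSP90, had 5.16, 5.56 and 5.45 in WL 26, against 4.40, 4.59 and 4.55 in WFR 22 (difference 0.88 ± 0.0985, adjusted p = 0.00048). HSP23.5 was chosen from sets without overlap, and the groups of Hop3 did not overlap either. Both genes have values below the median of every array. HSP17.6B was the lowest member, with a difference of -0.24 (adjusted p = 0.358).

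The 12 named genes with the largest positive differences included 2 of these chaperones. AT1G62510, of the lipid-transfer and 2S albumin superfamily, led them with 9.56, 9.91 and 9.79 in WL 26, against 7.52, 7.96 and 6.65 in WFR 22. It was 5.19-fold higher (difference 2.37 ± 0.251, adjusted p = 0.000284), and its WL 22 arrays, at 8.46, 8.35 and 8.53, stood between the 2 groups. Beside WL 22, its difference was 1.31 in WL 26 and -1.07 in WFR 22. These 2 differences share the WL 22 arrays, and the genes were chosen on WL 26 and WFR 22, so here and wherever they are given they are a description with no test.

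AT5G12110, which encodes a translation elongation factor 1B subunit, had the smallest adjusted p of the named genes. It measured 10.60, 10.69 and 10.62 in WL 26, against 9.21, 9.44 and 9.46 in WFR 22 (difference 1.26 ± 0.0843, adjusted p = 2.94e-06). WL 22 arrays, at 9.14 to 9.43, lay with WFR 22, and WFR 26 arrays, at 10.46 to 10.50, near WL 26.

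CSLA01, a glucomannan synthase of the cell wall, had 7.64, 8.20 and 8.53 in WL 26, against 6.61, 6.36 and 6.60 in WFR 22 (difference 1.60 ± 0.263, adjusted p = 0.00444). GH9B8, of the endoglucanase family that cuts wall glucans, went the other way, with 7.55, 7.77 and 8.10 in WL 26, against 8.41, 8.61 and 8.58 in WFR 22 (difference -0.73 ± 0.156, adjusted p = 0.0204). CSLA01 was chosen from sets without overlap, and the groups of GH9B8 did not overlap either. Beside WL 22, CSLA01 differed by 1.58 in WL 26 and by -0.02 in WFR 22, and GH9B8 by 0.07 in WL 26 and by 0.80 in WFR 22. COB and CSLC4, the other members of that list, differed by 0.05 and -0.12 and did not pass (adjusted p = 0.752 and 0.453).

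AT2G34810, of the berberine bridge enzyme family, had 8.21, 8.20 and 8.70 in WL 26, against 6.92, 7.33 and 7.10 in WFR 22 (difference 1.25 ± 0.152, adjusted p = 0.000845). AT4G17470, of the alpha/beta hydrolase superfamily, had 9.15, 9.17 and 9.69 in WL 26, against 8.17, 8.06 and 8.38 in WFR 22. Its difference of 1.13 ± 0.222 (adjusted p = 0.013) was 0.95 without WL 26 replicate 3, where it no longer passed (0.0551). MSRB5, which repairs oxidised methionine, measured 11.60, 11.48 and 11.51 in WL 26, against 10.39, 10.36 and 10.79 in WFR 22 (difference 1.02 ± 0.161, adjusted p = 0.00385).

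AT1G66100, a thionin gene of the family of small antimicrobial peptides, was set apart by its low WFR 22 arrays. It had 10.95, 11.04 and 11.62 in WL 26, against 10.49, 10.05 and 9.78 in WFR 22 (difference 1.09 ± 0.187, adjusted p = 0.0059). WL 22 arrays, at 11.20, 10.83 and 11.15, overlapped WL 26. Beside WL 22, it differed by 0.14 in WL 26 and by -0.95 in WFR 22.

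**Figure D2:**
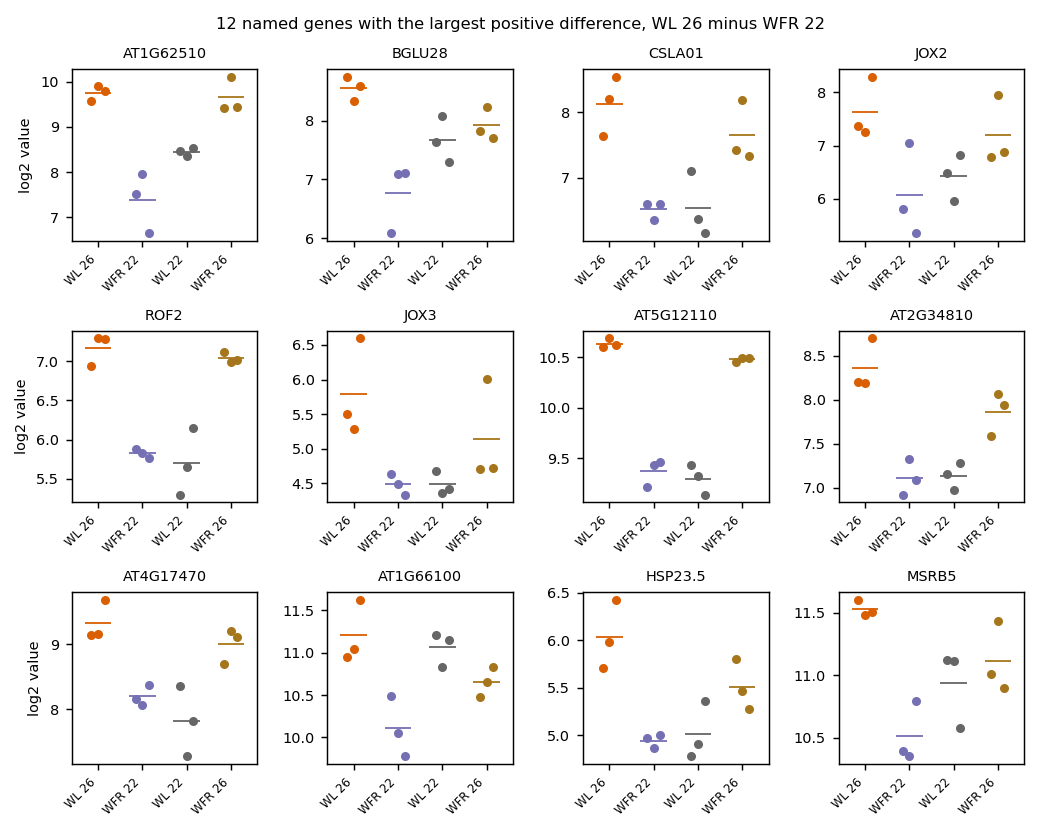
Log2 values of the 12 named genes with the largest positive difference, 1 point per array and a line at each mean, for WL 26, WFR 22, WL 22 and WFR 26 (n = 3 each). In ROF2 and AT5G12110 the WL 22 points lie beside WFR 22, while in AT1G66100 they lie beside WL 26, and the single high WL 26 array of JOX3 is at 6.59.

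The ER body is a compartment of Brassicaceae that stores beta-glucosidases. Measured genes of a list for the ER body and myrosinases, with lectin partners, all had positive differences. The list had 9 measured members and a median of 0.31. Membership of the list does not place a gene's product in the ER body. Of the 9, 2 were called higher, 0 lower, and 7 did not pass. Among all genes, 6064 of 13286 were positive and 1.42% were called higher. BGLU28, a beta-glucosidase chosen from sets without overlap, had 8.74, 8.33 and 8.60 in WL 26, against 6.08, 7.09 and 7.12 in WFR 22. This was a 3.46-fold difference (1.79 ± 0.25, adjusted p = 0.00184). WL 22 arrays, at 7.29 to 8.08, lay about midway.

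JAL33, a jacalin-related lectin, was called higher at 0.67 ± 0.157 (adjusted p = 0.03), but lost its call without any 1 of the WL 26 arrays or WFR 22 replicate 1 or 2 (adjusted p of up to 0.113). JAL23 and AT1G54020 had larger differences, 1.59 and 1.43, and did not pass (adjusted p = 0.0723 and 0.0687). PYK10, the main ER body beta-glucosidase, had 12.05, 12.09 and 12.28 in WL 26, against 11.71, 12.02 and 12.13 in WFR 22, which overlap (difference 0.19, adjusted p = 0.411).

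Jasmonate-oxidising enzymes, looked at after their values were seen, were variable between arrays. JOX2 (AT5G05600) had 7.36, 7.25 and 8.29 in WL 26, against 5.80, 7.05 and 5.35 in WFR 22 (difference 1.57 ± 0.408, adjusted p = 0.047). JOX3 (JRG21) had 5.51, 5.28 and 6.59 in WL 26, against 4.63, 4.50 and 4.34 in WFR 22 (difference 1.31 ± 0.328, adjusted p = 0.0407). Without WL 26 replicate 3 the differences were 1.24 and 0.91 and neither passed (adjusted p = 0.161 and 0.132).

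That array was the highest of its group for JOX2 and JOX3, and also for JAL23 (8.31 against 6.54 and 6.70 in the other WL 26 arrays), AT1G54020 (7.40 against 6.42 and 5.97) and THI2.1 (7.48 against 5.57 and 4.89), a jasmonate-inducible thionin. Single arrays of other groups stood out as well. WFR 26 replicate 2 had 7.95 for JOX2 (6.78 and 6.88 in the other WFR 26 arrays) and 6.01 for JOX3 (4.71 and 4.73). WFR 22 replicate 2 was the highest of its group for JOX2 but not for JOX3. Whether the RNA of these arrays differed in another way was not tested. Of 4 jasmonate response genes measured, 0 were called; THI2.1 differed by 1.29 (adjusted p = 0.2).

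BCAT4, the aminotransferase that starts methionine-derived glucosinolate synthesis, was higher at 0.47 ± 0.103 (adjusted p = 0.0205), with 11.37, 11.52 and 11.74 in WL 26, against 11.03, 11.04 and 11.13 in WFR 22. UGT74B1, which glucosylates glucosinolate precursors, did not pass at 0.30 (adjusted p = 0.0935). All 4 measured members of the aliphatic glucosinolate list were positive, with 1 called and a median of 0.17.

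ATG8 proteins, the ubiquitin-like proteins that coat the growing autophagosome, made up 9 of the 10 autophagy genes measured. ATG8E had 7.83, 8.03 and 8.08 in WL 26, against 7.44, 7.60 and 7.34 in WFR 22 (difference 0.52 ± 0.108, adjusted p = 0.0188). ATG8B had 7.27, 7.39 and 7.77 in WL 26, against 6.98, 7.22 and 6.91 in WFR 22 (0.44 ± 0.111, adjusted p = 0.0422). These 2 were called higher in WL 26 and 0 lower, and 9 of the 10 were positive with a median of 0.15. Among all genes, 6064 of 13286 were positive and 1.42% were called higher. Beside WL 22, ATG8E differed by 0.16 in WL 26 and by -0.35 in WFR 22, and ATG8B by 0.43 in WL 26 and by -0.01 in WFR 22. Both calls were lost without 1 of several arrays, with adjusted p of up to 0.0814 for ATG8E and 0.128 for ATG8B.

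Genes of the cytosolic ribosome and its assembly lay mostly on the negative side, while the elongation factor gene AT5G12110 was higher (difference 1.26). Cytosolic ribosomal proteins were gathered as a list after the lower genes were seen, so their count is a description and not a test. Of 131 measured, 0 were called higher and 19 lower, beside 1.42% higher and 1.99% lower over all genes. The median was -0.17, and 122 of the 131 were negative, beside 7215 of all 13286 genes. All WL 26 arrays lay below all WFR 22 arrays for 79 of them and above for 3, beside 13.8% and 8.66% of all genes.

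The largest difference of a ribosomal protein was that of RPP0A (AT2G40010), of the ribosome stalk, with 7.57, 7.67 and 7.80 in WL 26, against 8.28, 8.20 and 8.47 in WFR 22 (-0.63, adjusted p = 0.00247). RPS17C (AT3G10610) had 10.75, 10.62 and 10.64 in WL 26, against 11.17, 11.10 and 11.08 in WFR 22 (-0.44, adjusted p = 0.00735), and RPL28C (AT4G29410) had 11.62, 11.59 and 11.65 in WL 26, against 11.94, 12.03 and 11.98 in WFR 22 (-0.36, adjusted p = 0.00657). None of the 3 genes' groups overlapped. RPS9C went the other way at 0.45 and did not pass (adjusted p = 0.0581).

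Averaged over the 131 genes, the arrays read 10.59, 10.58 and 10.62 in WL 26, against 10.75, 10.74 and 10.79 in WFR 22. The WL 22 arrays, at 10.65, 10.71 and 10.78, and the WFR 26 arrays, at 10.69, 10.59 and 10.60, lay between or beside them. Array medians over all probe sets were at most 6.98 in WL 26 and higher, up to 7.01, in WFR 22; whether this bears on the ribosomal difference was not tested beyond the scalings. The ribosomal median stayed negative after each of the 4 scalings, at -0.13 after array medians to -0.17 after cyclic loess, with 12 to 20 of the 131 called lower and at most 1 called higher. The number lower was 4 without WL 26 replicate 2 and 34 with array weights. Ribosomal proteins have near-identical gene copies that probe sets may not separate.

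Genes of ribosome assembly, also chosen after values were seen, had the same direction: of 24 measured, 7 were lower and 0 higher, with a median of -0.23. Over all genes, 1.99% were lower and 1.42% higher. EBP2 (AT3G22660), a nucleolar factor of the large subunit, had 7.90, 7.98 and 8.12 in WL 26, against 8.36, 8.42 and 8.59 in WFR 22 (-0.45, adjusted p = 0.0161). NOP58-2 (AT3G05060), a core protein of the small nucleolar particles that modify ribosomal RNA, had 9.99, 9.86 and 9.95 in WL 26, against 10.27, 10.20 and 10.29 in WFR 22 (-0.32, adjusted p = 0.0238). Neither pair overlapped. The count of lower genes was 0 without WL 26 replicate 2 and 4 or 5 under the scalings.

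**Figure D3:**
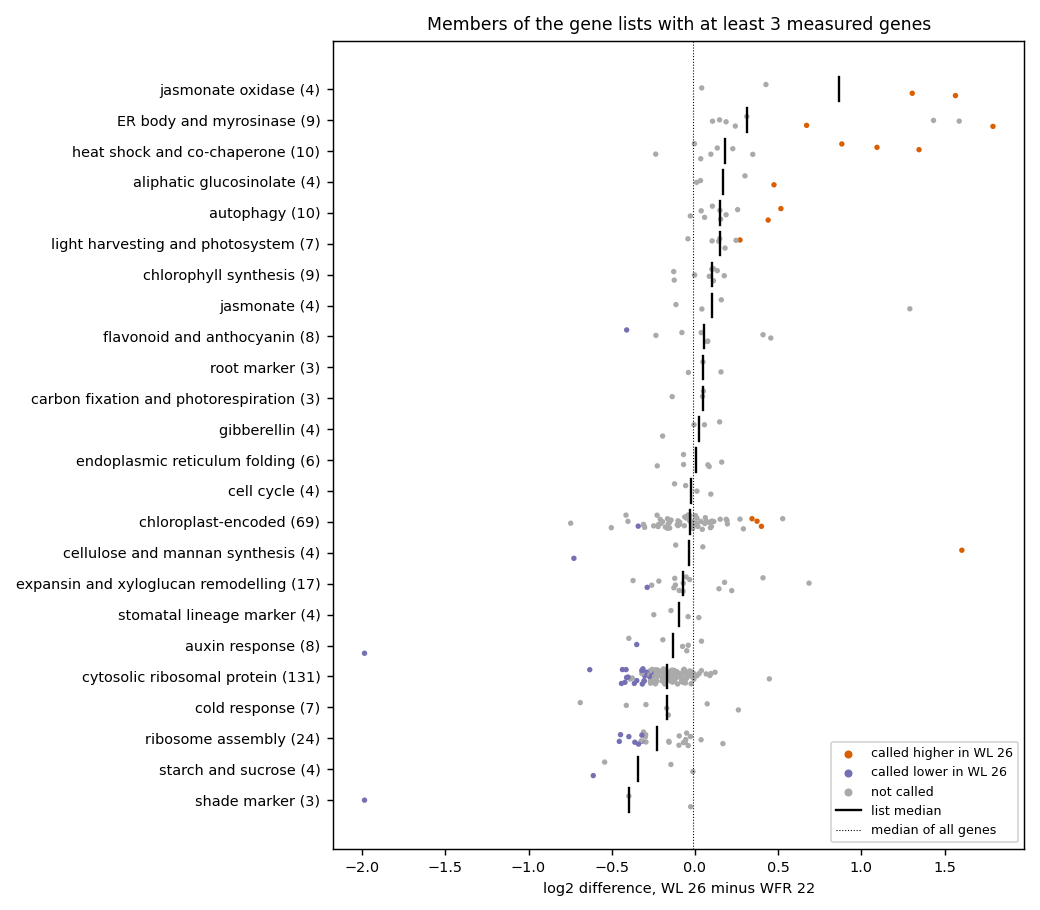
Log2 difference, WL 26 minus WFR 22, of each measured member of the lists with at least 3 genes; black bars are list medians and the dotted line is the median of all genes, -0.0121. Most genes of the ER body and myrosinase list and of the chaperone list lie to the right. Ribosomal proteins (131 genes, median -0.17), ribosome assembly and shade genes lie mostly to the left.

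The 12 named genes with the largest negative differences, besides IAA29 and RR16, fall into several families. AT5G55450, of the lipid-transfer protein family, had 8.22, 8.15 and 8.15 in WL 26, against 9.46, 9.49 and 9.08 in WFR 22 (difference -1.17 ± 0.119, adjusted p = 0.000209). WL 22 arrays, at 9.26, 9.17 and 8.91, overlapped WFR 22. Beside WL 22, it differed by -0.94 in WL 26 and by 0.23 in WFR 22.

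AT1G80130, a tetratricopeptide repeat gene, had 8.68, 8.96 and 8.73 in WL 26, against 9.92, 9.35 and 10.09 in WFR 22 (difference -0.998 ± 0.165, adjusted p = 0.00478). AT2G27420, a papain-type cysteine protease, had 6.70, 6.59 and 6.99 in WL 26, against 7.68, 8.13 and 7.40 in WFR 22 (-0.98 ± 0.173, adjusted p = 0.0069). Beside WL 22, their differences were 0.11 and 0.22 in WL 26, and 1.11 and 1.198 in WFR 22.

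AT2G47880, a glutaredoxin, had 6.71, 6.53 and 6.52 in WL 26, against 7.65, 7.80 and 7.23 in WFR 22 (-0.97 ± 0.167, adjusted p = 0.00606). AT5G62280 had 5.33, 5.35 and 5.31 in WL 26, against 6.59, 6.45 and 6.27 in WFR 22 (-1.11 ± 0.247, adjusted p = 0.0238), and lost its call without any 1 of the WL 26 arrays or WFR 22 replicate 1 or 2 (adjusted p of up to 0.0883). For both genes the WFR 26 arrays, 7.22 to 7.76 and 6.31 to 7.52, overlapped WFR 22.

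AT5G22460, of the alpha/beta hydrolase superfamily, had 7.12, 7.20 and 7.12 in WL 26, against 8.29, 7.89 and 8.12 in WFR 22 (-0.95 ± 0.097, adjusted p = 0.000209). AT5G49560 had 6.31, 6.39 and 6.44 in WL 26, against 7.27, 7.32 and 7.44 in WFR 22 (-0.96 ± 0.0977, adjusted p = 0.000209). Both genes were chosen from sets without overlap, so neither pair of groups could overlap.

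AT1G01390, of the UDP-glycosyltransferase family, had 5.41, 5.33 and 5.27 in WL 26, against 6.27, 6.32 and 6.54 in WFR 22 (-1.04 ± 0.112, adjusted p = 0.000321). AT1G78450, of the SOUL heme-binding family, was lower, at -0.93 (adjusted p = 0.00212), and so was AT5G59670, a leucine-rich repeat kinase gene, at -0.82 (adjusted p = 0.0265). For these 3 genes the WFR 26 means, at 5.65, 5.35 and 4.32, were closer to WL 26 than to WFR 22.

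**Figure D4:**
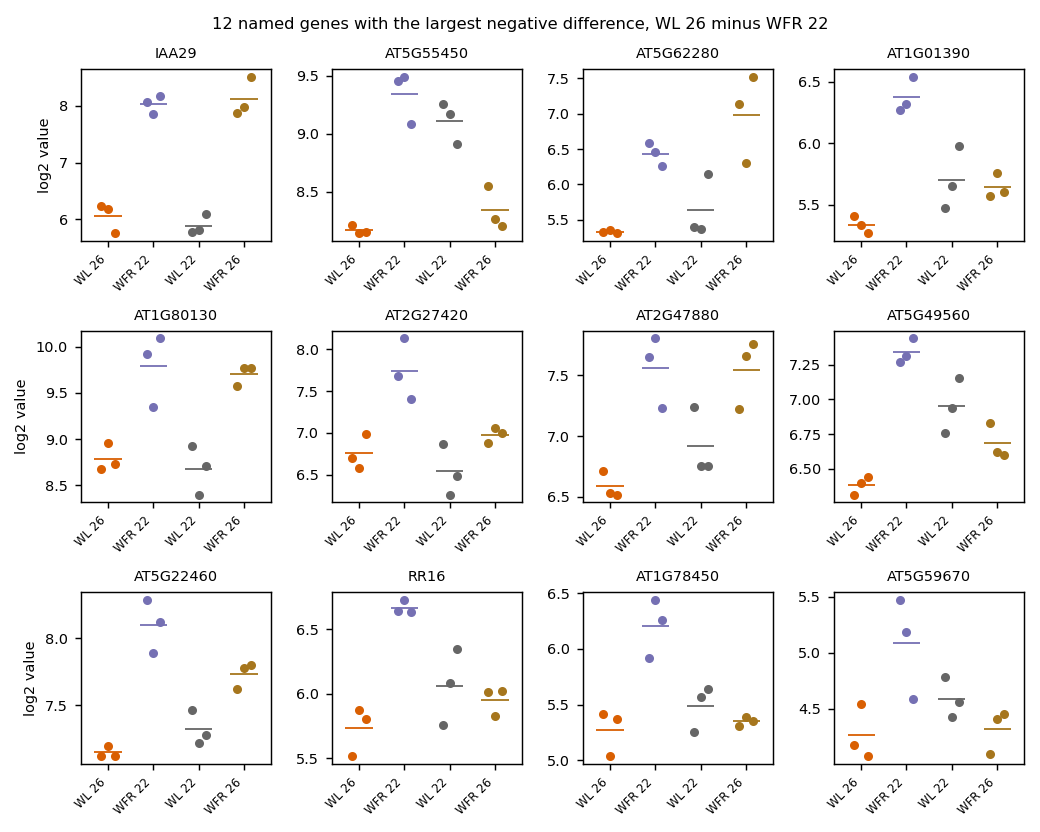
Log2 values of the 12 named genes with the largest negative difference, drawn like the plot of positive differences, with WL 26 left of WFR 22. WFR 26 points lie with WFR 22 for IAA29 and AT2G47880 and with WL 26 for AT5G55450 and AT1G78450.

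ATSPS4F, a sucrose-phosphate synthase, was 1.53-fold lower, with 10.02, 10.08 and 10.12 in WL 26, against 10.61, 10.69 and 10.75 in WFR 22 (difference -0.61 ± 0.08, adjusted p = 0.00124). All 4 measured starch and sucrose genes were negative, with a median of -0.34, and the other 3 did not pass. Among all genes, 7215 of 13286 were negative and 1.99% were called lower. UGT89C1 (AT1G06000), which rhamnosylates flavonols, was lower at -0.41 (adjusted p = 0.0338); it lost its call after subtracting array medians or upper quartiles (adjusted p of up to 0.0684), with the 6 arrays alone, and without any 1 of the WL 26 arrays or WFR 22 replicate 1 or 3 (up to 0.113). The other 7 measured flavonoid genes did not pass, DFR and UGT79B1 with 0.41 and 0.46. EXLA2, an expansin-like wall gene, was lower at -0.29 (adjusted p = 0.0444), a call lost under all 4 scalings (up to 0.104), and the other 16 expansin and xyloglucan genes did not pass.

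Photosynthesis genes had small differences. LHCB4.2, a minor antenna protein, was the 1 of 7 light-harvesting and photosystem genes called, at 0.27 (adjusted p = 0.0475), and lost its call with quantile normalisation and cyclic loess (adjusted p of up to 0.107). The list's median was 0.15 and 6 of 7 were positive. None of 9 chlorophyll synthesis genes passed, with 6 positive and a median of 0.10.

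Of 69 chloroplast-encoded genes, 3 were higher and 1 lower, and 27 were positive, with a median of -0.03, beside 1.42% higher and 1.99% lower over all genes. The number called was 1 without WL 26 replicate 2 or 3 or WFR 22 replicate 1, 2 without WFR 22 replicate 3, and 7 with array weights. psbE, psbM and psbJ, small subunits of photosystem II, were higher by 0.40, 0.37 and 0.34 (adjusted p = 0.00858, 0.0165 and 0.0329). rpl36, a chloroplast ribosomal protein gene chosen after its values were seen, was lower, at -0.34 (adjusted p = 0.0249). Per the labels' protocols the arrays were primed with oligo-dT, and chloroplast transcripts mostly lack a stable poly(A) tail.

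Cold-response genes gave no call. COR15A, a cold-induced protein of the chloroplast, had 11.44, 11.47 and 11.34 in WL 26, against 12.07, 11.54 and 11.89 in WFR 22 (difference -0.41 ± 0.177, adjusted p = 0.221; 95% interval -0.79 to -0.03). None of the 7 measured cold genes passed, with 5 negative and a median of -0.17. Beside WL 22, COR15A differed by -0.68 in WL 26 and by -0.26 in WFR 22. The list medians beside WL 22 were -0.55 in WL 26 and -0.25 in WFR 22. The lack of a call between WL 26 and WFR 22 therefore does not mean that these genes stayed at the WL 22 level.

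Markers of other tissues gave no call. The root markers EXPA7, EXPA18 and AGL21 had means of 3.89 to 5.37 in WL 26 and 3.93 to 5.21 in WFR 22, below the median of every array, and 0 were called. The leaf gene RCA, which activates Rubisco, averaged 14.46 in WL 26 and 14.41 in WFR 22. Of 4 measured genes listed for the stomatal lineage, 0 were called. STOMAGEN was nearest at -0.25 (adjusted p = 0.0518), but being on this list does not make it a marker of those cells. In the bulk RNA of whole shoots, fewer cells of a type and less RNA per cell cannot be told apart.

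The probe sets of 2A6, a dioxygenase gene (AT1G03410), were called in opposite directions, one at 0.50 (adjusted p = 0.0358) and the brighter one at -0.56 (adjusted p = 0.00247). They were named after their values were seen. Of the 9 genes with several named probe sets and at least 1 call, 2A6 was the only one whose sets differed in sign.

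The highest and the lowest difference of all belonged to probe sets without a named gene. 266142_at had 8.92, 8.59 and 10.11 in WL 26, against 5.13, 5.63 and 5.96 in WFR 22, a difference of 3.63 with WL 26 replicate 3 the highest array, and 256245_at differed by 1.91. 264638_at had 4.99, 5.26 and 5.03 in WL 26, against 7.96, 8.15 and 7.50 in WFR 22, a difference of -2.78, and 259417_at differed by -2.01.

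Where WL 22 and WFR 26 lie on these differences can be described but not tested, since choosing sets by WL 26 and WFR 22 pulls the others inward. Among the 377 sets higher in WL 26, the WFR 26 mean was nearer to WL 26 for 315 (83.6%) and the WL 22 mean nearer to WFR 22 for 239 (63.4%). Among the 540 lower sets, the WFR 26 mean was nearer to WL 26 for 388 (71.9%) and the WL 22 mean nearer to WL 26 for 296 (54.8%). The place of WL 22 moved with scaling: nearer to WL 26 in 47.7% of the higher and 40.7% of the lower sets after subtracting array medians. The share for WFR 26 stayed at 81.2% to 83.6% and 71.9% to 73.7% over the 4 scalings and the deposited values.

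**Figure D5:**
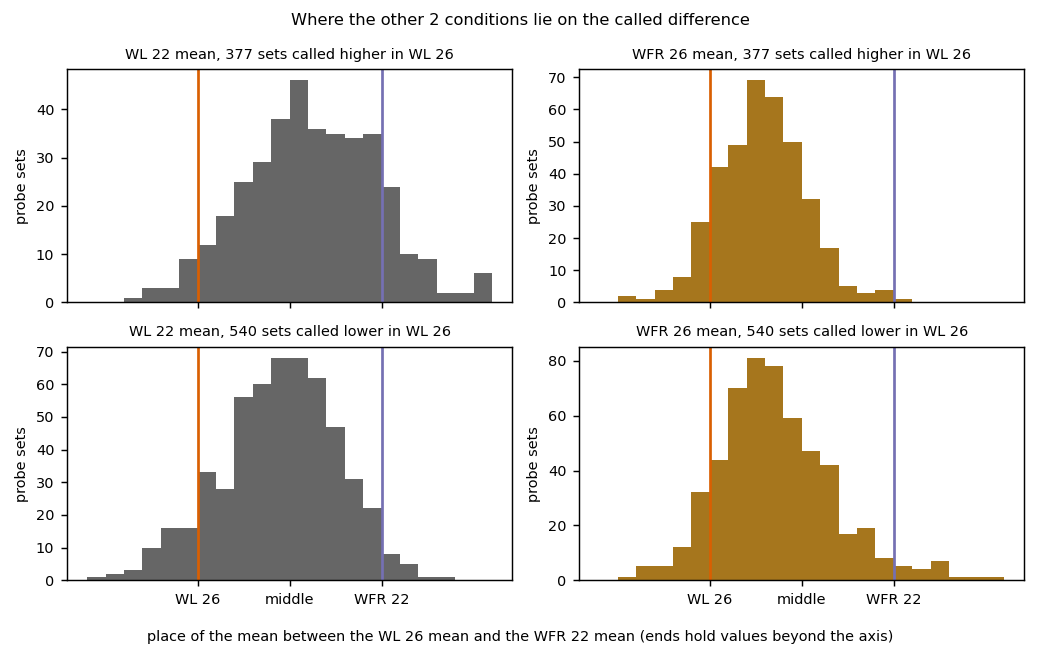
Place of the WL 22 mean (left) and the WFR 26 mean (right) between the WL 26 and WFR 22 means, as counts of probe sets, for sets called higher (top) and lower (bottom) in WL 26. The WFR 26 means gather towards WL 26 in both rows, and the WL 22 means spread over the middle.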

How the data were processed

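Deposited values were log2 expression, 1 for each probe set on each array. The submitters' processing notes list RMA, affy and MAS5; no version, nor the step behind the deposited log2 numbers, is given in the sources used here. Of 22810 probe sets, 64 control sets were left out. Genes came from the platform annotation, updated through RefSeq (TAIR10.1, names only): 13513 probe sets have 1 gene (13436 through RefSeq), 503 several, and 8730 are unnamed here.

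All 12 arrays entered 1 linear model, with a mean for each condition (limma 3.58.1, R 4.3.3; lmFit, eBayes without trend; 8 residual and 5.99 prior degrees of freedom; two-sided; Benjamini-Hochberg over 22746 probe sets). Each gene's brightest probe set stood for it in the lists. P-values weigh a difference of means against the spread between arrays of the same condition.

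The members, comparison and gene lists were chosen with earlier results of these data known; cytosolic ribosomal protein, ribosome assembly, jasmonate oxidase and auxin oxidase lists were written after values were seen. Named genes are the 12 largest differences each way among called single-gene sets without overlap, up to 3 called members per list, and 15 set genes; non-called members named as examples were chosen after their values were seen. Of 845 genes written in 35 lists, 142 were measured; the abscisic acid, brassinosteroid, seed storage and vascular lists had 0. Alternatives were 4 array scalings, filters on dim sets, eBayes with trend, array weights, the 6 arrays alone, a replicate block and leaving out each array. The fit was tested on simulated data. Promoter motifs were not analysed here.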

Additional observations from a re-analysis of the deposited data

How the results depend on the processing

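Of the 917 called sets, 0 changed direction under any alternative. This was largely fixed by the call, since the smallest called difference was 0.236 in size. Several alternatives, such as the replicate block and the 6 arrays alone, do not alter the differences themselves. Leaving out single arrays gave between 322 and 1122 called sets. Weighting the arrays gave 1707. With the replicate block it was 687, and with only the 6 arrays compared 616. Of the 38 named and called genes, 21 stayed called under every alternative that tested them, 35 under all 4 scalings, 32 with the replicate block and 21 whichever array was left out; 0 reversed. The calls most often lost were those of EXLA2, LHCB4.2, JOX2 (AT5G05600), ATG8B and UGT89C1 (AT1G06000, lost in 9 of 22 alternatives, also with the block). Calls of list genes were also lost without WL 26 replicate 2, alone (psbE, adjusted p = 0.0516) or as 1 of several WL 26 and WFR 22 arrays: BCAT4 (up to 0.0824), psbM (0.0748), psbJ (0.139), GH3.3 (0.0942) and GH9B8 (0.08). AT5G59670 lost its call without WL 26 replicate 1 or 3 or WFR 22 replicate 1 or 2 (up to 0.104). Counts of the lists written after values were seen were added to the alternatives after seeing the data. The cause was not tested. Same-numbered arrays did not clearly deviate together (correlations of -0.259 to 0.12 over 18 pairs). Unlike-numbered arrays of different conditions had correlations of -0.246 to 0.247, so some arrays did share deviations across conditions. With 3 arrays per group, these correlations cannot show whether the numbers pair the arrays. A call lost with the block therefore remains a limit on that gene. Dim genes are limited by the signal floor of the arrays, and 3 arrays per group limit small differences.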
